A study of Glycine max with 18 samples.

Results

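The genes examined here were those whose transcripts gained most between late maturation and the dry seed of soybean (Glycine max). A gene was a member when its plain mean over the 3 dry seed libraries was at least 20 and at least 5 times its mean over the 3 late maturation libraries. This rule took 178 of 51546 gene identifiers. A further 8642 identifiers reached a dry seed mean of 20 but fell short of the 5-fold gain, and they serve below as the other abundant genes of dry seed. Since the dry seed and late maturation values chose the members, that difference is described without a test, and tests are given only for stages the rule did not use.

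Seeds such as those of soybean end their development by losing most of their water. During seed filling the embryo lays down storage protein and oil, and in late maturation it turns to genes that protect cells against drying, many of them under the control of the hormone abscisic acid. The dry seed is nearly inactive, yet it keeps a store of messenger RNA, part of which is left from maturation and part of which can serve at the start of germination.

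The series held 18 libraries of polyadenylated RNA from cultivar Williams 82, with 3 biological replicates at each of 6 stages, all from greenhouse plants. Cotyledon stage embryos were taken from seeds of 2.5 to 3.5 mm and early maturation embryos from seeds of 6 to 7 mm. Mid maturation embryos came from seeds of 200 to 250 mg. Late maturation material came from fully yellow seeds of 230 to 500 mg, for which the protocol mentions seed coat as well as embryo. Mature dry seeds and seedlings 8 days after sowing completed the series. The protocol speaks of whole seedlings, while the seedling data columns carry the letters COT, as those of the cotyledon stage do. Whether the seedling values come from whole plants or a part is thus uncertain, and this applies to each seedling value below. Libraries held 3572134 to 8776240 reads. Levels are given as the deposited normalized counts, which scale the reads of each gene by a factor for the library, without correction for transcript length. They are therefore relative to the library, and in whole tissue fewer cells of a type and less RNA per cell cannot be told apart. Late maturation is labelled as embryo tissue and dry seed as seed, so tissue and stage cannot be told apart in this step. The identifiers carry no gene names in the sources used here, so no role is given to any member, and marker genes of seed coat, endosperm or other tissues were not examined.

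The members ranged widely in dry seed, with a median normalized count of 59.8 over the 178 means and extremes of 20.04 and 1747. Their late maturation means had a median of 7.36, with extremes of 0.420 and 267. The ratio of the dry seed mean to the late maturation mean had a median of 7.44 and reached 71.3. It was 10 or more for 52 members and 20 or more for 22. The lowest of the 3 dry seed values lay above the highest of the 3 late maturation values for all 178 members, as it did for 15% of the 51546 identifiers; the rule itself favours such genes. Few members were close to absent in late maturation. In that stage 15 members had under 30 reads in the 3 libraries together, and the fewest was 6.

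**Figure D1:**
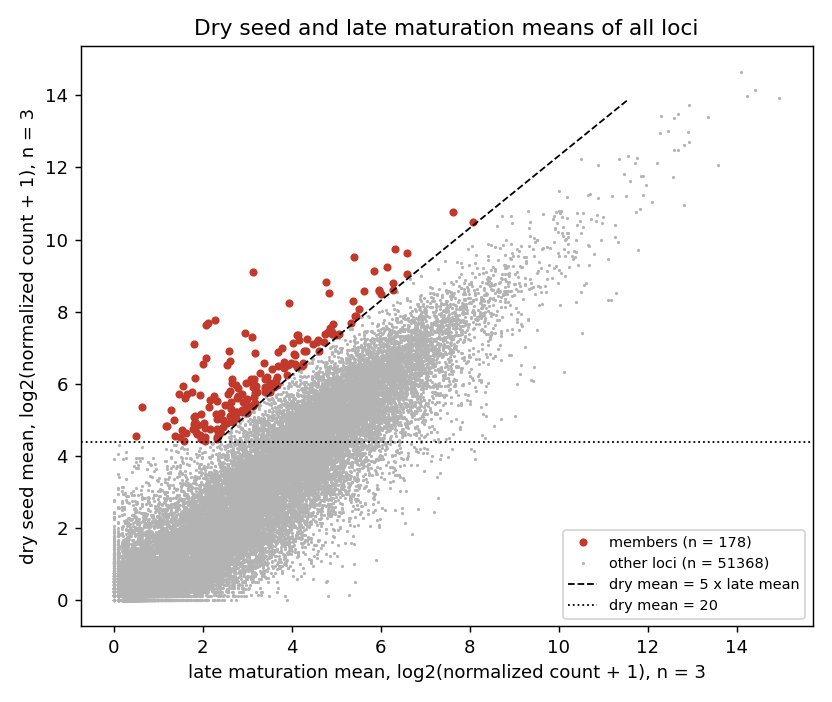
Dry seed mean against late maturation mean, both as log2(normalized count + 1) over 3 libraries, for every identifier; members are the large points. The 178 members lie above the lines for a dry seed mean of 20 and a ratio of 5, at the upper edge of a continuous cloud.

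No gap separated the members from the genes just outside the rule. The 3 members closest to the ratio limit had ratios of 5.01, 5.01 and 5.03, and the 3 genes closest below it had 4.99, 4.98 and 4.98. Of genes with a dry seed mean of at least 20, 105 had a ratio of at least 4 but under 5. The 3 members with the lowest dry seed means stood at 20.04, 20.2 and 21.1. The 3 genes nearest below the minimum stood at 19.8, 19.5 and 19.1.

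The highest member in dry seed, Glyma.08G212000, had normalized counts of 1612, 1753 and 1877 in dry seed, against 194, 223 and 172 in late maturation. Elsewhere its means were 2.04 ± 0.920 (cotyledon stage), 0.729 ± 0.326 (early maturation), 5.02 ± 2.58 (mid maturation) and 2.58 ± 0.824 (seedlings; SD, n = 3). It was thus low in embryos up to mid maturation, well above that in late maturation and low again in seedlings. The next, Glyma.01G096000, had 1639, 1325 and 1331 in dry seed, against 164, 341 and 296 in late maturation. It kept 129, 132 and 132 in seedlings, more than at any embryo stage up to mid maturation, where its library values ran from 4.86 to 15.6. These 2 members held 13.6% of the members' summed dry seed level, and the 10 highest held 35.3%.

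As a group the members took a larger share of reads in dry seed than at any other stage. Cotyledon stage libraries gave them 0.490% ± 0.0700 of reads, early maturation 0.260% ± 0.0187, mid maturation 0.0942% ± 0.00293 and late maturation 0.254% ± 0.0289. Dry seed gave them 2.05% ± 0.127 and seedlings 1.04% ± 0.0413 (SD, n = 3). The high dry seed share and the low late maturation share follow from the rule. The seedling share, which the rule did not use, lay above those of all embryo stages, with library values of 0.989% to 1.07%. Sums of this kind rest on the abundant members.

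By the median over members, levels were lowest from the cotyledon stage to mid maturation. This did not hold for every member, since the lowest of the 6 stage means lay in late maturation for 27 and in seedlings for 23. The 178 means had a median of 4.47 for cotyledon stage embryos, 3.01 for early and 3.47 for mid maturation embryos, and 11.7 for seedlings. The other abundant genes of dry seed had medians of 21.3, 20.2, 23.3 and 21.7 at the same stages. Means were below 1 for 47 members in cotyledon stage embryos, 53 in early and 45 in mid maturation embryos, and 12 in seedlings. Such levels lie near the detection floor, since 3 reads correspond to a normalized count of 0.263 to 1.30 depending on the library, a floor that covers counting error only. Below 1 at all of the cotyledon, early and mid maturation stages were 32 members (17.98%) and 126 of the other abundant genes (1.46%). No test was run on these shares. The rule itself parted the members from the other abundant genes by late maturation level (medians 7.36 and 43.0). Differences between the 2 sets at other stages may therefore follow in part from the rule.

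**Figure D2:**
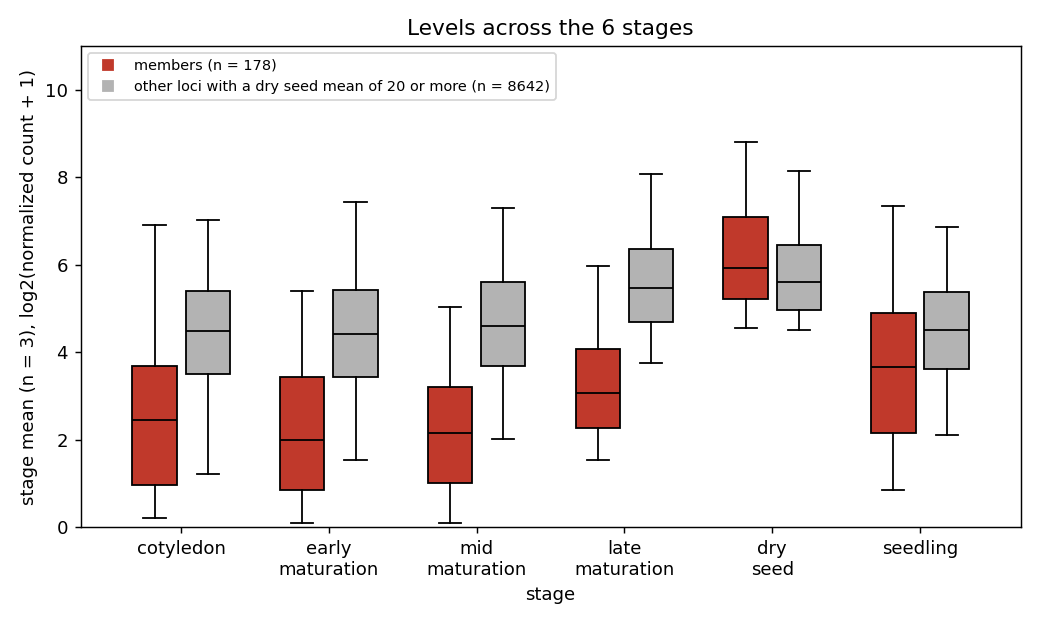
Stage means as log2(normalized count + 1) for the 178 members, beside the 8642 other genes with a dry seed mean of 20 or more. Boxes span the quartiles with the median as a line, and whiskers reach the 5th and 95th percentiles. The members' median lies below that of the other genes at every stage except dry seed, where the medians are 59.8 and 48.0, and the members' upper whisker is the higher in seedlings.

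Dry seed was the stage of the highest mean for 145 of the 178 members. For the others the highest mean lay in seedlings (21 members), at the cotyledon stage (9), in early maturation (2) or in mid maturation (1). When dry seed and late maturation are set aside, the seedling held the highest of the remaining means for 109 members (61.2%), the cotyledon stage for 43, mid maturation for 16 and early maturation for 10. Among the other abundant genes of dry seed, the seedling held that place for 28.8% and mid maturation for 29.9%. All 3 dry seed values lay above all 3 seedling values for 143 members (80.3%), a share close to the 79.0% of the other abundant genes. They lay below the seedling values for 18 members, and the ranges overlapped for 17. The dry seed values lay above those of mid maturation for 176 members (98.9%), against 73.5% of the other abundant genes. Since members were chosen for high dry seed values, these counts describe them and test nothing. For the counts of separate or overlapping values, shares over all identifiers were not counted. The 18 and 17 have no share of the other abundant genes beside them either.

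The members fell into 4 kinds by the stages that stayed within 5-fold of the dry seed mean. In 83 members (46.6%) the dry seed mean was at least 5 times that of every other stage. In 43 (24.2%) it was at least 5 times that of all embryo stages but less than 5 times that of seedlings. In 13 (7.30%) it was at least 5 times the seedling mean but less than 5 times the mean of at least 1 stage from cotyledon to mid maturation. The remaining 39 (21.9%) were within 5-fold both at an embryo stage and in seedlings. The first kind had medians of 2.28, 1.29, 1.77, 7.50, 74.8 and 3.33 from the cotyledon stage to seedlings. The second kind had medians of 1.78, 2.05, 2.02, 5.91, 51.04 and 24.9 in the same order. The third kind was highest at the cotyledon stage among the embryo stages, with medians of 80.2, 13.4, 12.6, 9.54, 156 and 6.24. The fourth kind had medians of 17.0, 17.3, 10.3, 7.01, 52.3 and 35.5, with the lowest in late maturation. These medians follow in part from how the kinds were set. Means increased at every step from cotyledon stage to dry seed in 19 members (10.7%), near the 9.22% of the other abundant genes. The late maturation mean was below that of mid maturation in 46 members (25.8%), against 19.5% of the other abundant genes. Both of these counts use late maturation values, which the rule also used, so they describe the members and test nothing.

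**Figure D3:**
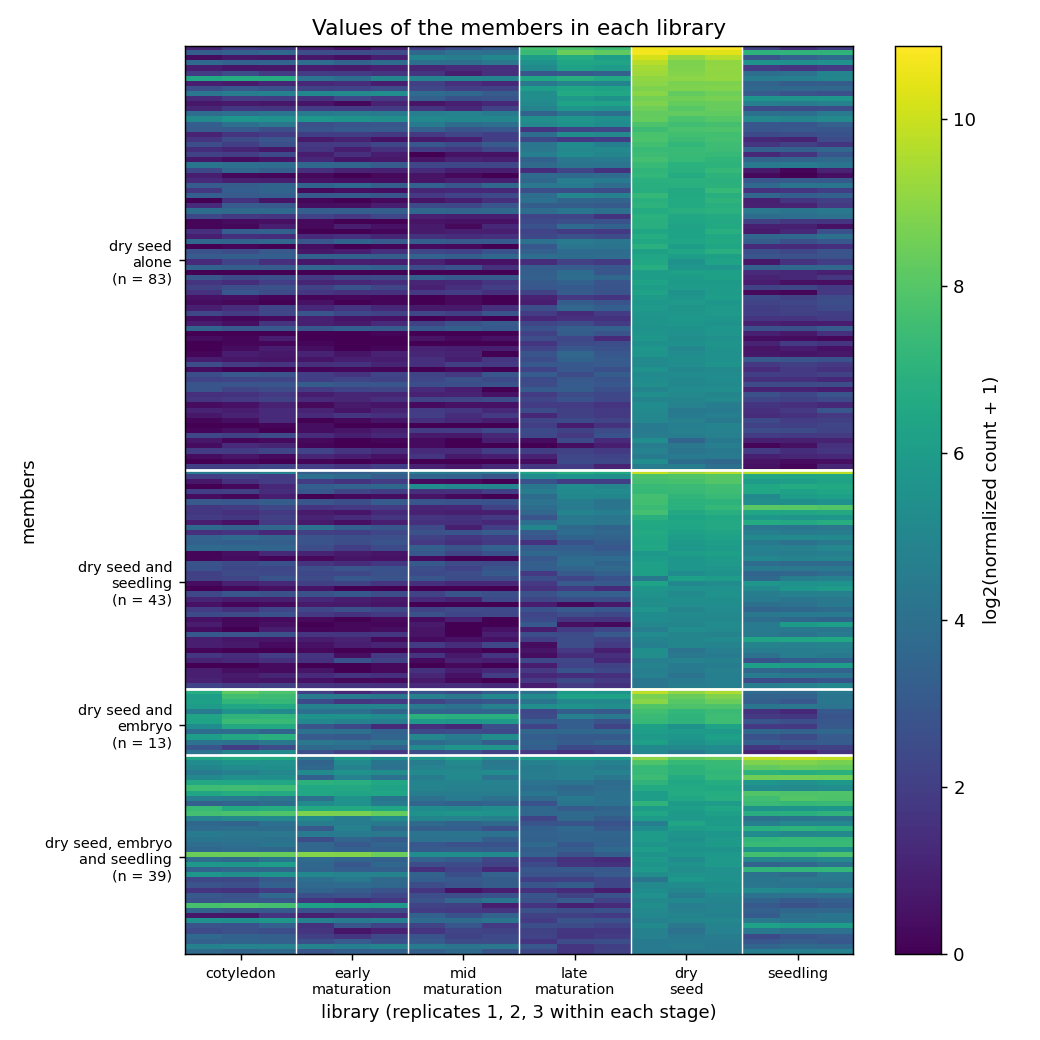
Values of the 178 members in each of the 18 libraries as log2(normalized count + 1), with rows grouped by the stages that stayed within 5-fold of the dry seed mean and sorted by dry seed mean within each group. The group of 83 is brightest in dry seed, although single members reach means of 267 in late maturation and 131 in seedlings. The group of 43 is bright also in seedlings, and the groups of 13 and 39 also at embryo stages before late maturation.

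The step from the cotyledon stage to early maturation was tested with limma on log2(normalized count + 1), with Benjamini-Hochberg adjustment over 36872 genes. A gene was called at an adjusted p under 0.05 and a log2 difference of at least 1, and all 178 members entered the test, although their dry seed values alone sufficed for that. In early maturation 7 members (3.93%) were higher than at the cotyledon stage, against 8.53% of all genes tested and 9.23% of the other abundant genes of dry seed. Another 35 members (19.7%) were lower, against 10.2% of all genes and 10.3% of those others. The median log2 difference of the members was -0.18, against 0.00 over all genes. In 43 members both means were below 1, a level at which few differences can be called.

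By the rule, all members that fell in this step had a dry seed mean of at least 20, and the 2 with the largest falls are described here. Glyma.09G131500 had normalized counts of 3.19, 1.26 and 2.28 in early maturation, against 104, 288 and 224 at the cotyledon stage, and fell by 5.92 on the log2 scale (SE 0.387, adjusted p by limma = 8.45e-11). It stayed low in mid maturation, at 5.70, 4.52 and 8.68, and reached 894, 554 and 741 in dry seed, against 15.8, 60.1 and 47.9 in late maturation. Its seedling values were 13.03, 12.04 and 20.4, so the gene was high at the cotyledon stage and in dry seed, with low values between and after. Glyma.16G178800 had a similar course, at 4.36, 2.16 and 2.50 in early maturation, against 72.2, 142 and 148 at the cotyledon stage, and fell by 4.90 (SE 0.332, adjusted p by limma = 1.45e-10). It reached 494, 261 and 344 in dry seed, against 17.2, 32.9 and 32.3 in late maturation. In both genes the cotyledon and late maturation values of replicate 1 were the lowest of their stage and the dry seed value of replicate 1 the highest. Of all members, 14 (7.87%) had a cotyledon mean of at least 5 and a mid maturation mean under 20% of it, a course shared by 106 of the other abundant genes (1.23%). The rule left those others with higher late maturation levels, so this difference may follow in part from the rule.

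Among the 7 members that rose in early maturation, the largest difference was that of Glyma.13G142400. It had normalized counts of 8.51, 9.71 and 11.3 in early maturation, against 0, 0.185 and 1.30 at the cotyledon stage, where replicates 1, 2 and 3 held 0, 2 and 10 reads. The log2 difference was 2.95 (SE 0.240, adjusted p by limma = 2.44e-09). The later means were 33.4 ± 5.23 (mid maturation), 28.8 ± 9.79 (late maturation), 172 ± 10.6 (dry seed) and 94.7 ± 6.47 (seedlings; SD, n = 3). Glyma.03G066800 had 14.8, 12.05 and 7.93 in early maturation, against 3.01, 3.24 and 2.85 at the cotyledon stage, a log2 difference of 1.603 (SE 0.179, adjusted p by limma = 2.29e-07). In both genes no early maturation value overlapped a cotyledon value.

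Between early and mid maturation the members did not stand far from all genes. In mid maturation 20 members (11.2%) were higher than in early maturation, against 11.3% of all genes tested, and 23 (12.9%) were lower, against 14.7%. Of the other abundant genes of dry seed, 18.9% were higher and 10.4% lower. The median log2 difference of the members was 0.01, against -0.06 over all genes. With count models on the recovered reads more members were higher, 34 with edgeR and 35 with DESeq2, while the same tools called 15.4% and 15% of all genes higher.

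The member with the largest gain in mid maturation was Glyma.14G063800. It had normalized counts of 29.2, 23.3 and 32.6 in mid maturation, against 0.638, 0.360 and 0.869 in early maturation, a log2 difference of 4.18 (SE 0.248, adjusted p by limma = 1.47e-11). It continued to 66.0, 103 and 67.7 in late maturation and to 1169, 563 and 808 in dry seed, and seedlings held 6.11, 9.55 and 13.3. Its level thus increased over 3 successive steps before the low seedling values, although its dry seed libraries ranged from 563 to 1169. Glyma.08G069000 had 4.46, 4.07 and 6.51 in mid maturation, against 0.319, 0.360 and 0.869 in early maturation, a log2 difference of 1.98 (SE 0.333, adjusted p by limma = 3.04e-05). Its late maturation values, 8.18, 8.37 and 7.47, all lay above those of mid maturation, and dry seed held 128, 100.2 and 112.

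The members that fell most in mid maturation had been abundant in young embryos. Glyma.08G227400 had normalized counts of 3.71, 3.16 and 0.868 in mid maturation, against 74.8, 66.7 and 57.01 in early maturation, and fell by 4.33 on the log2 scale (SE 0.259, adjusted p by limma = 1.57e-11). Its late maturation values were 2.18, 0.951 and 1.54, from 8, 5 and 7 reads, and its dry seed values were 40.03, 24.3 and 27.6. Dry seed thus held more than the stages just before it, but less than the 209, 223 and 203 of the cotyledon stage. Glyma.20G179700 had 39.1, 40.4 and 36.02 in mid maturation, against 465, 453 and 337 in early maturation, and fell by 3.39 (SE 0.154, adjusted p by limma = 3.00e-13). It was lowest in late maturation, at 9.81, 5.51 and 8.79, and stood at 48.8, 53.02 and 54.9 in dry seed and 188, 178 and 214 in seedlings. For this gene dry seed was an intermediate level between late maturation and the seedling.

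**Figure D4:**
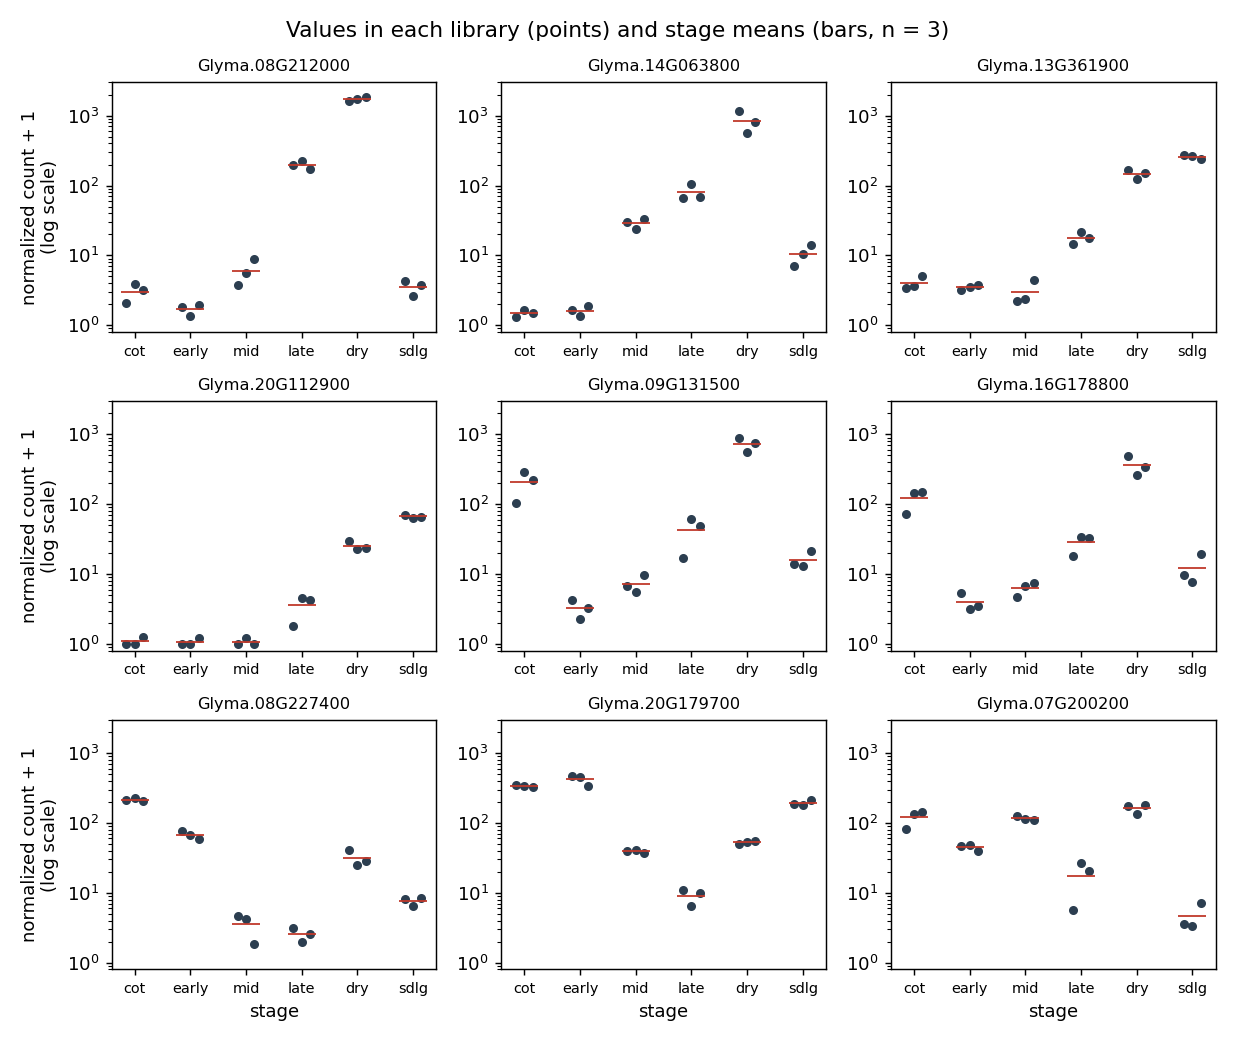
Normalized count + 1 on a log scale in each library for 9 members named in the text, with stage means as bars. Glyma.08G212000 and Glyma.14G063800 peak in dry seed, Glyma.13G361900 and Glyma.20G112900 are higher still in seedlings, and the other 5 were high at an earlier stage, lower in late maturation and higher again in dry seed. The higher level in dry seed than in late maturation follows from the rule for all 9.

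Seedlings were set against the cotyledon stage and against mid maturation, so that the level after germination could be compared with embryo stages the rule did not use. The dry seed and late maturation libraries do not enter these differences. They do enter the estimate of spread per gene, and so each SE and adjusted p. In seedlings 91 members (51.1%) were higher than at the cotyledon stage, against 28.4% of all genes tested and 20.2% of the other abundant genes of dry seed. Another 29 members (16.3%) were lower, against 22.7% of all genes and 19.9% of the other abundant genes. The median log2 difference of the members was 1.06, against -0.01 over all genes and -0.07 over the other abundant genes. The difference was 3 or more for 41 of the members that were higher and -3 or less for 10 of those that were lower. The shares of all genes at these limits were not counted, so these 2 counts describe the members only. Cotyledon replicate 3 held the highest value of its stage for 83 members, against 50 for replicate 1 and 43 for replicate 2. Without it 96 members were higher in seedlings and 24 lower. The shares of all genes in that fit are not given here.

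The largest difference was that of Glyma.13G142400, with normalized counts of 88.1, 101 and 95.1 in seedlings, against 0, 0.185 and 1.30 at the cotyledon stage. Its log2 difference was 6.10 (SE 0.240, adjusted p by limma = 1.79e-15), a size that depends on the pseudocount because the cotyledon values are near 0. Glyma.13G361900 had 269, 262 and 241 in seedlings, against 2.41, 2.69 and 4.15 at the cotyledon stage, a log2 difference of 6.01 (SE 0.216, adjusted p by limma = 4.47e-16). Its dry seed values of 168, 123 and 148 lay below the seedling values and above the 13.6, 20.5 and 16.9 of late maturation.

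Members that were lower in seedlings included Glyma.08G227400, described above, with 7.23, 5.396 and 7.55 in seedlings, against 209, 223 and 203 at the cotyledon stage. It was lower by a log2 difference of -4.79 (SE 0.259, adjusted p by limma = 2.99e-13). Glyma.07G200200 had 2.55, 2.35 and 6.06 in seedlings, against 80.7, 133 and 144 at the cotyledon stage, a log2 difference of -4.73 (SE 0.376, adjusted p by limma = 1.79e-10). This gene was also high in mid maturation, at 125, 112 and 111, and in dry seed, at 171, 135 and 178, against 4.63, 25.7 and 19.6 in late maturation. Early maturation held 46.1, 46.8 and 38.2. Late maturation lay below the embryo stages before it and, as the rule requires, below dry seed, and its replicate 1 was the lowest.

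Seedlings were next set against mid maturation, when embryos fill with reserves. In seedlings 102 members (57.3%) were higher than in mid maturation, against 28.3% of all genes tested and 16.3% of the other abundant genes of dry seed. Only 14 members (7.87%) were lower, against 17.5% of all genes and 20% of the other abundant genes. The median log2 difference was 1.27 for the members, 0.03 over all genes and -0.22 over the other abundant genes. The seedling libraries serve both comparisons, so the counts against the cotyledon stage and against mid maturation are not independent of each other.

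The largest difference was that of Glyma.13G361900, with the seedling values given above against 1.24, 1.36 and 3.47 in mid maturation, a log2 difference of 6.49 (SE 0.216, adjusted p by limma = 1.03e-16). Glyma.20G112900 had 69.8, 63.4 and 64.7 in seedlings, against 0, 0.226 and 0 in mid maturation, where the 3 libraries together held 1 read. The seedling level was 712 times the mid maturation level by reads, with an exact 95% interval of 128 to 28144 that covers counting error only (log2 difference 5.97, SE 0.262, adjusted p by limma = 9.03e-15). It had at most 2 reads in any cotyledon or early maturation library, 0.818, 3.61 and 3.30 in late maturation and 28.4, 21.9 and 22.4 in dry seed. Its transcript was thus nearly undetected before late maturation and highest in the seedling.

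Of the 14 members lower in seedlings than in mid maturation, Glyma.07G200200 had the largest difference, -4.73 on the log2 scale (SE 0.376, adjusted p by limma = 2.11e-10). Glyma.19G128000 had normalized counts of 2.34, 3.32 and 3.42 in seedlings, against 35.9, 49.3 and 49.5 in mid maturation, a log2 difference of -3.51 (SE 0.230, adjusted p by limma = 8.86e-12). In dry seed it stood at 36.2, 33.8 and 37.4, against 8.45, 4.37 and 4.40 in late maturation. Its dry seed and mid maturation values overlapped, and late maturation and the seedling were both lower.

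**Figure D5:**
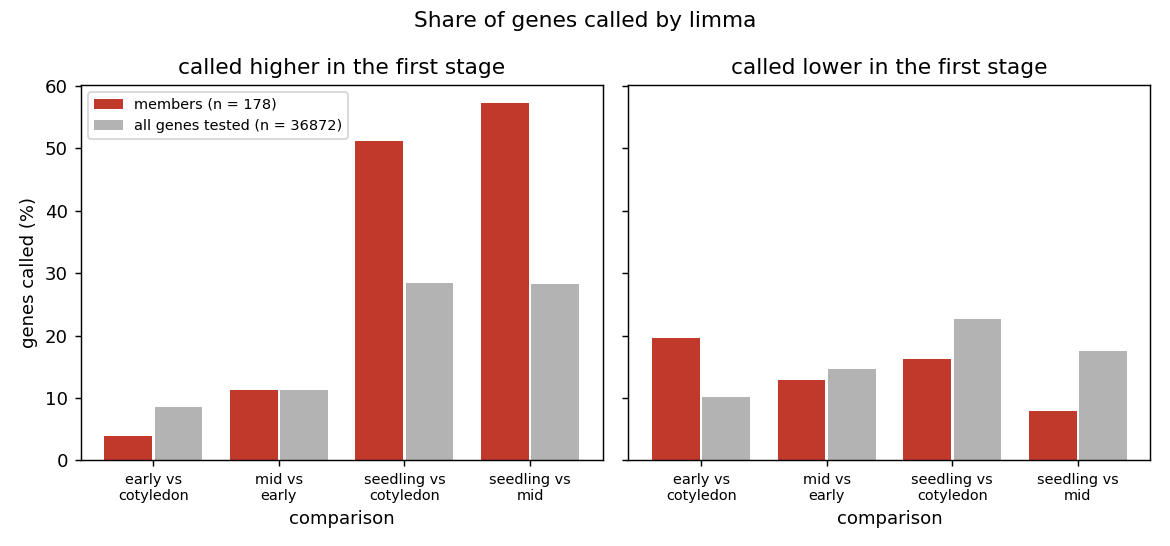
Percentage of the 178 members and of all 36872 genes tested that limma called higher (left) or lower (right) in the first stage of each comparison. Members exceed all genes among those higher in seedlings (51.1% and 57.3%, against 28.4% and 28.3%) and among those lower in early maturation than at the cotyledon stage (19.7%, against 10.2%).

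How far the choice rested on single libraries was examined by choosing members without 1 library and reading that library afterwards. Without dry seed replicate 1, 2 or 3 the rule took 167, 193 and 179 genes, and the library left out was at least 5 times the late maturation mean for 149, 149 and 164 of them. Without late maturation replicate 1, 2 or 3 it took 171, 207 and 190 genes. The dry seed mean was then at least 5 times the library left out for 146, 132 and 156. In late maturation the members were unevenly spread over the replicates. Replicate 1 held the lowest value of its stage for 107 of the 178 members, against 31 and 40 for replicates 2 and 3. Replicate 2 held the highest value for 108, against 37 and 33 for replicates 1 and 3. Across genes replicate 1 correlated less with dry seed (Pearson's r 0.894 to 0.903) than replicates 2 and 3 did (0.918 to 0.927). It correlated more with mid maturation (0.748 to 0.762, against 0.703 to 0.729). Genes are not independent, and these correlations are descriptions. Of the 178 members 155 were also chosen without late maturation replicate 1. The part of replicates 1 and 2 in the gain was not tested further.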

How the data were processed

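Polyadenylated RNA was sequenced from 18 soybean libraries, 3 biological replicates at each of 6 stages. The authors deposited 1 normalized count per gene identifier and library, a signal that is never negative. The submitters' processing notes name Bowtie 0.12.7 and edgeR 3.0.8. No genome build, annotation or counting rule is given in the sources used here, and reads shared by near-identical gene copies make single values uncertain. In each library the deposited signal was a whole multiple of 1 step, the value of 1 read. Dividing by it left 927825 of 927828 values within 0.05 of whole numbers. The steps differed from TMM scaling (trimmed mean of M-values) of these reads by a relative 3.17e-06 or less.

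A RefSeq gene table (assembly v4.0, with 59048 genes) matched 0 of the 51546 identifiers. Gene lists by function were therefore not tested, tissue markers were not examined and no sequence is shown. The members and comparisons were chosen with earlier results of these data known.

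Stages were compared with limma 3.58.1 in R 4.3.3, two-sided, on log2(normalized count + 1), in 1 model over the 18 libraries with a mean-variance trend. Genes entered where 3 or more libraries reached a value of 1, which left 36872. Log2 differences on this scale understate changes of low genes. In each tested comparison the named genes are the 2 called members with the largest positive and the 2 with the largest negative log2 difference, and for dry seed against late maturation the 2 with the highest dry seed mean. The procedure was tested on simulated counts, with the comparisons in the order used above. Of 67 genes changed 2-fold it called 21, 18, 16 and 26, and of 67 changed 4-fold it called 67, 67, 67 and 66. Of 36672 unchanged genes it called 1, 7, 0 and 3. Most 2-fold changes were thus missed, so a member that was not called may still differ by that much. Alternatives covered the thresholds of the rule, pseudocount, filter, scaling, replicate block, trend, libraries in the fit, each library left out, edgeR 4.0.16 and DESeq2 1.42.0 on the recovered reads. Within stages Pearson's r across genes was 0.974 to 0.990, and every pair of replicates differed by more than counting noise (lowest chi-square divided by degrees of freedom 1.49).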

Additional observations from a re-analysis of the deposited data

How the results depend on the processing

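The number of members moved with the limits of the rule, to 581 at a ratio of 3, 52 at a ratio of 10 and 109 at a dry seed minimum of 50. It was 260 at a minimum of 10, 136 after upper-quartile rescaling and 239 after median-of-ratios rescaling. The median log2 difference of dry seed minus late maturation over all genes detected in both was -0.10 as deposited, -0.21 after upper-quartile and 0.08 after median-of-ratios rescaling. Leaving out 1 library gave 167 to 207 members.

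Of 144 counts of called members recomputed under alternatives, 132 stayed within 1.5 times the reported count. A pseudocount of 4, by construction, shrinks low genes' differences. In early maturation 4 members were then higher and 20 lower than at the cotyledon stage (4.93% and 5.88% of all genes). In mid maturation 9 were then higher and 14 lower than in early maturation (6.97% and 8.97% of all genes), and 7 were lower in seedlings than in mid maturation (11%). With no limit on the difference, these counts were 17, 57, 43, 43 and 23, and the shares of all genes 22.6%, 23.2%, 24.2%, 30.9% and 34.9%. On the recovered reads 34 members (edgeR) and 35 (DESeq2) were higher in mid than in early maturation, and the cause was not tested. Over all genes, edgeR called 4560 higher and 4975 lower in early maturation than at the cotyledon stage, 5691 and 6289 in mid than in early maturation, 11791 and 9728 in seedlings than at the cotyledon stage and 11424 and 8341 in seedlings than in mid maturation. Leaving out each library gave 6 to 9 higher and 30 to 39 lower in early maturation than at the cotyledon stage, and 19 to 24 and 21 to 24 in mid than in early maturation. In seedlings it gave 88 to 96 higher and 24 to 31 lower than at the cotyledon stage, and 101 to 105 and 12 to 14 against mid maturation. The shares of all genes in the fits without 1 library are not given here, so these ranges describe the members only. After upper-quartile and median-of-ratios rescaling 96 and 97 members were higher in seedlings than at the cotyledon stage (31% and 31.4% of all genes), and 108 and 108 than in mid maturation (31.3% of all genes under both).

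Whether replicate numbers pair the libraries was not settled. Of 12 same-numbered pairs, 2 had deviations correlated above 0.1, both between early maturation and the cotyledon stage (0.109 each). Of 18 libraries, 8 correlated best with an equally numbered library. In a fit with a replicate block, early maturation again had 7 members higher and 35 lower than the cotyledon stage, and the other counts were also as reported. Of 288 values of named genes under alternatives, 287 kept direction and call. The exception was Glyma.08G069000 in mid against early maturation, with 0.99 at a pseudocount of 4. Named genes were picked as the largest differences, so this says little about other members. Means below 1 rest on few reads.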

Other observations

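Members were found on every chromosome, by the chromosome number that their identifiers carry. Chromosome 8 held the most, 21 of its 3486 identifiers (0.602%), and chromosome 15 the lowest share, 3 of 2543 (0.118%). Relative to genes with a dry seed mean of at least 20, members made up 3.11% on chromosome 8 and 0.718% on chromosome 15. In 5 cases 2 members had neighbouring identifiers in the sorted list, on chromosomes 5, 8 and 17, which concerns 10 members. Both genes of 1 pair on chromosome 5 were higher in seedlings than in dry seed by mean, at 149.8 and 221 in seedlings and 53.7 and 86.5 in dry seed. Both genes of the other pair on that chromosome were low in seedlings, at 16.7 and 6.72, and stood at 303 and 205 in dry seed. No test was run on positions, and reads shared between similar neighbours could make such values alike, which was not tested.

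Within dry seed, replicate 2 held the lowest value for 112 of the 178 members and replicate 1 the highest for 98. The coefficient of variation over the 3 dry seed values had a median of 14.5% and reached 72.9%. In seedlings replicate 3 held the highest value for 99 members and replicate 2 for 27.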
